A study of Homo sapiens with 6 samples.

Results

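Transcripts of 10 genes of the TGF-beta pathway were followed: the ligands TGFB1 and TGFB2, the receptors TGFBR1 and TGFBR2, the signal-carrying SMADs SMAD2, SMAD3 and SMAD4, the inhibitory SMADs SMAD6 and SMAD7, and the SMAD corepressor SKIL. They are 10 of the 20729 gene symbols in the count table, and each was found by its symbol. The genes were chosen with their values in this same contrast already known, so those values are given as a description with no test. All libraries are labelled SW620, an established human colorectal cancer line. One group is labelled siOSBPL3, for an siRNA against OSBPL3, and the other siNC, for a control siRNA, with 3 RNA-seq libraries in each. The siRNA sequences, dose, duration and number of separate cultures are not given in the sources used here, so each p-value rests on the spread among these 6 libraries, and that spread may be technical.

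TGF-beta ligands are secreted in a latent form and, once released, bind TGFBR2, which recruits and phosphorylates TGFBR1. TGFBR1 then phosphorylates SMAD2 and SMAD3, which join SMAD4 and enter the nucleus to switch genes on or off. SMAD7 and SMAD6 oppose this at the receptors and SMADs, SKIL opposes it on DNA, and in many epithelia the pathway slows growth, and colorectal cancers often carry inactivating changes in its genes.

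OSBPL3 itself averaged 22.5 ± 15.4 CPM in siOSBPL3 and 176 ± 2.70 CPM in siNC (CPM, library-scaled counts with TMM factors, SD, n = 3 each). The siOSBPL3 libraries stood at 22.8%, 6.93% and 8.61% of the siNC mean in replicates 1, 2 and 3. Replicate 1 of siOSBPL3 also stood farther from the other libraries of its group, with a chi-square of 41.8 and 48.9 per degree of freedom, against 18.4 between replicates 2 and 3 and 2.94 to 3.52 between siNC libraries. Totals ran from 34569895 to 39701340 counts in siOSBPL3 and from 30040020 to 33667128 in siNC. The epithelial genes EPCAM (619 ± 98.6 CPM in siOSBPL3 and 516 ± 1.87 CPM in siNC) and KRT8 (2380 ± 282 and 3000 ± 11.2 CPM) were abundant in both groups. The intestinal markers KRT20, CDX1, CEACAM5 and GPA33 were at or below 0.443 CPM on average in either group. The intestinal factor gene CDX2 stood at 63.5 ± 9.66 CPM in siOSBPL3 and at 1.15 ± 0.396 CPM in siNC, and the mesenchymal filament gene VIM at 1.64 ± 0.868 CPM in siOSBPL3 and 694 ± 8.96 CPM in siNC. That both groups are the same cell line rests on the labels and was not tested. Every fold change given here compares the libraries labelled siOSBPL3 with those labelled siNC, in which loss of OSBPL3 and any other difference between the cells of the groups cannot be told apart. The 14 colorectal epithelial markers summed to between 5070 and 6180 CPM in siOSBPL3 and to between 7250 and 7330 CPM in siNC, with CDX1 at 0 in siNC. The 7 fibroblast markers summed to between 3.46 and 5.98 CPM in siOSBPL3, with LUM at 0, and to between 70.0 and 74.4 CPM in siNC, with COL3A1 at 0. LUM alone made up 60.3 ± 2.61 CPM of the siNC sum and COL1A1 10.7 ± 0.978 CPM, while DCN, THY1 and FAP were at or below 0.12 CPM on average in either group. The 6 leukocyte markers summed to between 11.7 and 17.4 CPM in siOSBPL3 and to between 20.4 and 22.8 CPM in siNC. They went opposite ways, with CD8A (log2 fold change 2.80) and CD14 (3.43) higher in siOSBPL3, CD68 (-1.70) and LYZ (-3.39) lower, and PTPRC and CD3E at or below 0.11 CPM on average in either group. The 3 endothelial markers summed to at most 0.803 CPM in siOSBPL3 and 2.37 CPM in siNC. In bulk libraries fewer cells of a type and less RNA per cell cannot be told apart. The part of these marker differences in the results that follow was not tested.

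All 10 genes passed the filter on low counts, TGFB2 only through its siOSBPL3 libraries, since its siNC libraries all held under 10 counts. All 10 passed an adjusted p of 0.05 over all genes tested (edgeR quasi-likelihood test), 7 higher and 3 lower in siOSBPL3 (SMAD2 turned with a correction for GC content and length), and for all 10 the libraries of the groups did not overlap. The same threshold was passed by 80.2% of the 15506 genes tested, 40.4% higher and 39.8% lower, and 83.0% of them did not overlap between the groups. Nothing is read from the members' counts, since the genes were chosen on this contrast and the background is as high. In size, 6 of the 10 differed at least 2-fold, against 48.9% of all genes tested that were called at that size. The median log2 fold change (siOSBPL3 over siNC) was 0.62 over the 10 genes and -0.00089 over all genes tested.

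**Figure D1:**
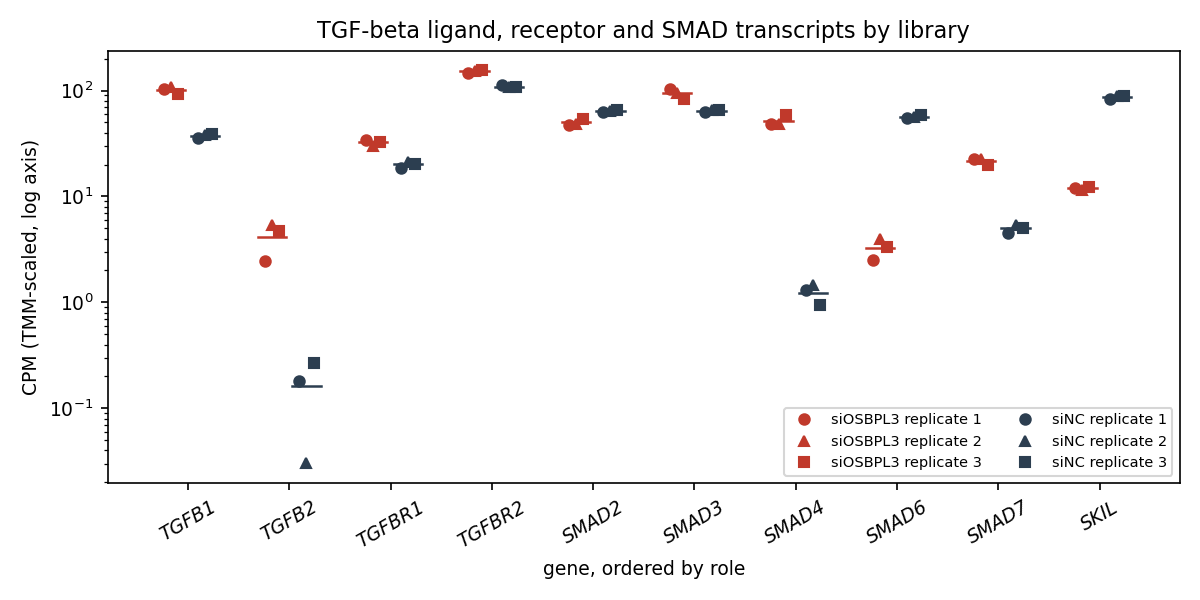
CPM (TMM-scaled, log axis) of the 10 genes in each library, siOSBPL3 in red left of siNC in dark blue, with marker shape for the replicate and a bar for the group mean. SMAD4 and TGFB2 stand far higher in siOSBPL3, SMAD6 and SKIL far lower, and no gene's groups overlap.

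The ligand genes were both higher in siOSBPL3, from very different levels. TGFB1, the main TGF-beta ligand of epithelial and immune tissue, had 103.6, 108.6 and 91.9 CPM in the siOSBPL3 libraries, against 35.4, 38.3 and 38.5 CPM in the siNC libraries. The TGFB1 mean was 2.71 times as high in siOSBPL3, and its log2 fold change was 1.44 ± 0.09 (SE, as for every fold change here). TGFB1 overlaps annotated genes on the opposite strand, of which HNRNPUL1 held 8141 to 9308 counts in siOSBPL3 and 7051 to 7758 in siNC, and CCDC97 held 1231 to 1399 counts in siOSBPL3 and 469 to 511 in siNC. Without the strand setting of the counting, reads of TGFB1 and of these partners cannot be told apart where they overlap. TGFB2, a second ligand that needs the co-receptor TGFBR3 for strong binding, had 89, 195 and 188 counts in siOSBPL3, against 6, 1 and 8 counts in siNC. That amounted to 2.46, 5.33 and 4.75 CPM in siOSBPL3 and 0.183, 0.0301 and 0.270 CPM in siNC. With so few siNC counts the log2 fold change of TGFB2, 4.70 ± 0.52, ran from 4.19 to 5.25 as single libraries were left out.

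Both receptor genes were moderately higher in siOSBPL3. TGFBR1, the type I receptor kinase that phosphorylates SMAD2 and SMAD3, had 34.4, 29.8 and 32.9 CPM in siOSBPL3, against 18.7, 21.2 and 20.3 CPM in siNC, a log2 fold change of 0.69 ± 0.10. TGFBR2, the ligand-binding type II receptor, had 147.0, 153.5 and 154.9 CPM in siOSBPL3, against 111.6, 106.9 and 108.2 CPM in siNC, a log2 fold change of 0.48 ± 0.08. These were small differences for this contrast: 63.0% of all genes tested had a larger absolute log2 fold change than TGFBR1, and 73.4% a larger one than TGFBR2. Per kb of the longest transcript, TGFBR2 transcripts outnumbered TGFBR1 transcripts 6.02, 7.27 and 6.63 times in siOSBPL3 and 8.42, 7.11 and 7.52 times in siNC, ranges that overlap. The size of this excess rests on the length: per kb of the median transcript, TGFBR2 averaged 32.9 and TGFBR1 29.2 CPM in siOSBPL3, and TGFBR2 averaged 23.6 and TGFBR1 18.1 CPM in siNC.

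SMAD4 had the largest log2 fold change of the 10 genes with all libraries in the fit. Without siNC replicate 3 it was 5.22 for SMAD4 and 5.25 for TGFB2. SMAD4, the common partner that SMAD2 and SMAD3 need for most transcriptional output, had 1735, 1756 and 2315 counts in siOSBPL3, against 43, 48 and 28 counts in siNC. In CPM that was 48.0, 48.0 and 58.5 in siOSBPL3 and 1.31, 1.45 and 0.944 in siNC. The mean was 41.8 times as high in siOSBPL3, a log2 fold change of 5.37 ± 0.16, and 5.84% of all genes tested had a larger absolute value. The siNC libraries thus all held SMAD4 reads, but few, and no siOSBPL3 library came near them. SMAD4 overlaps an annotated protein-coding gene on its own strand that is not in the count table, so reads they share cannot be told apart.

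Without a correction for GC content and length, its partners SMAD2 and SMAD3 differed little and in opposite directions. SMAD2 had 47.6, 48.2 and 54.3 CPM in siOSBPL3, against 62.9, 63.6 and 66.0 CPM in siNC, a log2 fold change of -0.36 ± 0.08. SMAD3 had 104.5, 94.0 and 83.5 CPM in siOSBPL3, against 62.2, 65.4 and 65.9 CPM in siNC, a log2 fold change of 0.54 ± 0.09. With a correction for the GC content and length of each gene's longest transcript the direction of SMAD2 turned (1.38 ± 0.08), and it turned as well with the middle of its RefSeq-paired transcripts (0.80 ± 0.07). The longest SMAD2 transcript in the annotation has 34526 bases and the middle RefSeq-paired one 12075, so the size of that correction depends on the transcript. SMAD3 stood at 0.60 ± 0.08 with the correction by the longest transcript and at 0.02 ± 0.08 with the middle RefSeq-paired one. No direction is therefore given for SMAD2 and SMAD3 beyond the uncorrected values.

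Per kb of the longest transcript, SMAD4 reached 0.327, 0.364 and 0.499 times the level of SMAD3 in siOSBPL3, against 0.0150, 0.0157 and 0.0102 times in siNC. The ratio of the groups does not depend on the lengths used, whereas each ratio does.

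The inhibitory SMADs moved apart. SMAD6, which acts mainly on the BMP branch, had 2.52, 3.99 and 3.36 CPM in siOSBPL3, against 55.0, 56.8 and 58.3 CPM in siNC. It was 17.2 times as high in siNC, a log2 fold change of -4.10 ± 0.15. SMAD7, which blocks TGFBR1 and is itself induced by TGF-beta, had 22.7, 22.8 and 19.9 CPM in siOSBPL3, against 4.53, 5.33 and 5.09 CPM in siNC, a log2 fold change of 2.13 ± 0.13. Of the transcripts of both genes, counted per kb of the longest transcript, SMAD7 made up 91.4%, 87.0% and 87.4% in siOSBPL3, against 8.83%, 9.93% and 9.29% in siNC. The inhibitory SMAD with more transcripts per kb was thus SMAD7 in every siOSBPL3 library and SMAD6 in every siNC library.

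The start regions of SMAD4, SMAD6 and SMAD7 are shown because these genes had the largest differences among the SMADs and because SMAD proteins bind short motifs at their own genes. Each line gives 250 bases before and 50 bases after the first start that RefSeq lists on GRCh38.p14, read on the gene's strand. Capitals mark GTCTAGAC, a palindromic SMAD-binding element, and CAGAC, a shorter SMAD-binding motif, on either strand.
SMAD4 (chr18:51029963-51030262, + strand): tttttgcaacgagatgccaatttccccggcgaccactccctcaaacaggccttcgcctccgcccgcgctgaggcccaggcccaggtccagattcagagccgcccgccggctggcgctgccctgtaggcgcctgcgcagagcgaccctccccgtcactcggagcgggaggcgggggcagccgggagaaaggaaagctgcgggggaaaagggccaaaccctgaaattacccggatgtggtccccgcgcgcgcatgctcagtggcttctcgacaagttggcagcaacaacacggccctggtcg
SMAD6 (chr15:66701986-66702285, + strand): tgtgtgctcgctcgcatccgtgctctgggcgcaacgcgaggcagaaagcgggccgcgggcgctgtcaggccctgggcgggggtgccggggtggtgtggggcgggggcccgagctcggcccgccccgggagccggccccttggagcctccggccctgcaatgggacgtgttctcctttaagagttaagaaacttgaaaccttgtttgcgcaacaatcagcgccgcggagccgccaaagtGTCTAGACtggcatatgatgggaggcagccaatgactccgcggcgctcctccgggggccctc
SMAD7 (chr18:48950916-48951215, - strand): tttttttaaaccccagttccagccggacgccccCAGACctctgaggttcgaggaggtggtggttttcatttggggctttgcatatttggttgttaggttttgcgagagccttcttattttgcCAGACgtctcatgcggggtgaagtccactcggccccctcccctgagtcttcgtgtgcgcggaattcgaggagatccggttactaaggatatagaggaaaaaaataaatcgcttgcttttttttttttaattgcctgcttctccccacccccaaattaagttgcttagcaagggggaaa
At the first listed start, SMAD6 was the only one of the 10 genes with GTCTAGAC, at 12 bases before the start. That motif was held by 0.201% of 27305 such windows. Further listed starts were not read, so motifs there, or outside the window, would be missed. SMAD7 has 3 starts listed, SMAD3 5, TGFBR1 8, and SMAD2 and TGFBR2 2 each. CAGAC, which does not overlap GTCTAGAC, was in the windows of 5 of the 10 genes (SMAD3, SMAD7, TGFBR1, TGFB2 and SKIL), and in 45.0% of all windows. SMAD7 held 2 CAGAC matches and SMAD4 held neither motif. The AP-1 motif TGANTCA was in none of the 10 windows and in 7.76% of all windows. The genes with CAGAC include ones higher (SMAD7, TGFB2) and lower (SKIL) in siOSBPL3, and these matches describe letters in a window, not bound sites.

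SKIL, the gene for the corepressor SnoN, which holds SMAD target genes silent and is a target of the pathway itself, was lower in siOSBPL3. It had 12.1, 11.5 and 12.2 CPM in siOSBPL3, against 83.7, 89.5 and 89.4 CPM in siNC. It was 7.33 times as high in siNC, a log2 fold change of -2.87 ± 0.09. SMAD7 and SKIL, both known as early TGF-beta targets, thus differed in opposite directions in the same libraries.

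**Figure D2:**
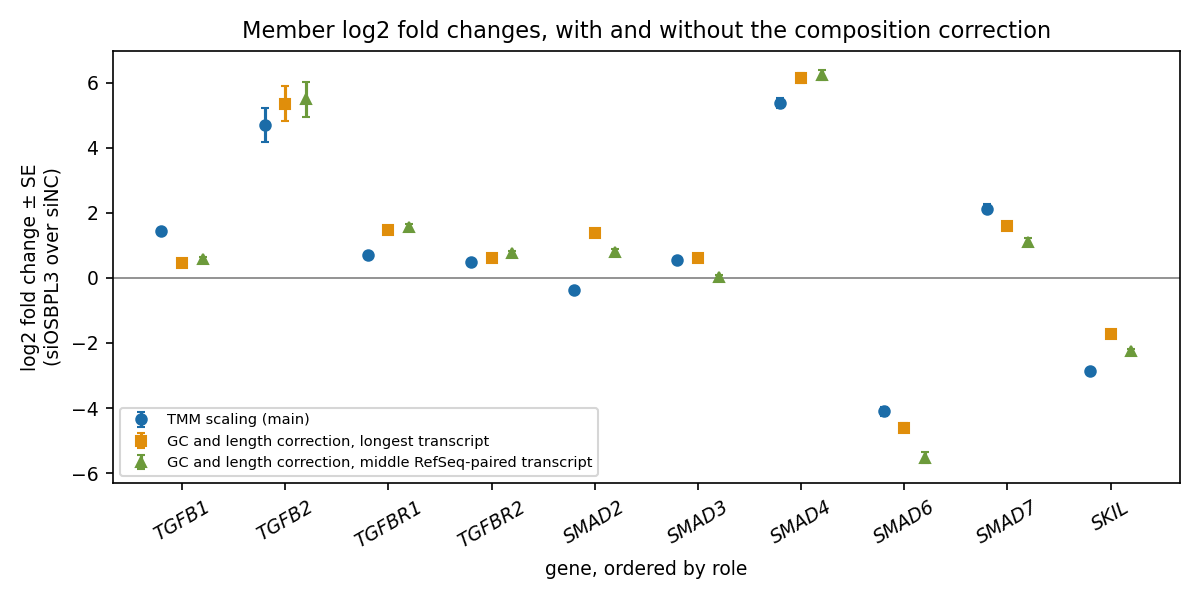
Log2 fold change (siOSBPL3 over siNC, ± SE) of the 10 genes with TMM scaling alone (circles) and after correction for composition and length of the longest (squares) or middle RefSeq-paired transcript (triangles). SMAD2 lies below 0 without the correction (-0.36) and above 0 with either form (1.38 and 0.80). The other 9 genes keep their sign, but SMAD3 lies within its SE of 0 with the middle RefSeq-paired transcript (0.02 ± 0.08).

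The GC and length correction moved most of the other values without turning them. With the longest transcript TGFB1 stood at 0.47 ± 0.07, TGFBR1 at 1.46 ± 0.10, SMAD4 at 6.15 ± 0.15, SKIL at -1.72 ± 0.08, TGFB2 at 5.36 ± 0.53 and TGFBR2 at 0.60 ± 0.07. SMAD6 was at -4.60 ± 0.15 and SMAD7 at 1.58 ± 0.11, and with the middle RefSeq-paired transcript they were at -5.53 ± 0.17 and 1.11 ± 0.11. The GC content of the longest transcript ran from 33.4% in SKIL to 63.5% in TGFB1.

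Replicates of a gene agreed closely beside these differences. The coefficient of variation was under 12% for 8 of 10 genes in each group, and the exceptions were TGFB2 (36.3%) and SMAD6 (22.4%) in siOSBPL3 and TGFB2 (75.4%) and SMAD4 (21.0%) in siNC, the genes with the fewest counts. Within siOSBPL3 replicate 1 had the highest SMAD3 and the lowest TGFB2 and SMAD6, and replicate 3 had the highest SMAD2 and SMAD4.

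The order of levels among the 10 genes differed between the groups. Per kb of the longest transcript, TGFB1 (36.6 ± 3.10 CPM per kb) and TGFBR2 (32.9 ± 0.91) led in siOSBPL3 with overlapping ranges, followed by SMAD3 (13.4 to 16.7) and SMAD4 (5.87 ± 0.69). TGFBR1 (4.97 ± 0.36) and SMAD7 (4.93 ± 0.37) came next in siOSBPL3 and overlapped, then SKIL (1.66 ± 0.05) and SMAD2 (1.45 ± 0.11), and TGFB2 (0.827 ± 0.300) and SMAD6 (0.633 ± 0.142) were lowest and overlapped. In siNC the order began with TGFBR2 (23.6 ± 0.53 CPM per kb), TGFB1 (13.5 ± 0.63) and SKIL (12.2 ± 0.46), with SMAD6 (10.9 ± 0.33) and SMAD3 (10.3 ± 0.32) overlapping behind them. TGFBR1 (3.08 ± 0.20), SMAD2 (1.86 ± 0.05), SMAD7 (1.13 ± 0.09), SMAD4 (0.141 ± 0.030) and TGFB2 (0.0318 ± 0.0240) followed in siNC. SMAD4 thus held rank 4 in siOSBPL3 and rank 9 in siNC, and SMAD6 rank 10 in siOSBPL3 and rank 4 in siNC. With the median transcript length only 1 gene in siOSBPL3 and 3 in siNC kept their rank, though SMAD4 was then at rank 3 in siOSBPL3 and rank 9 in siNC, so the order rests on the length chosen. TGFBR2 then stood at rank 5 in siOSBPL3 and 6 in siNC, and SMAD2 at rank 4 in both.

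**Figure D3:**
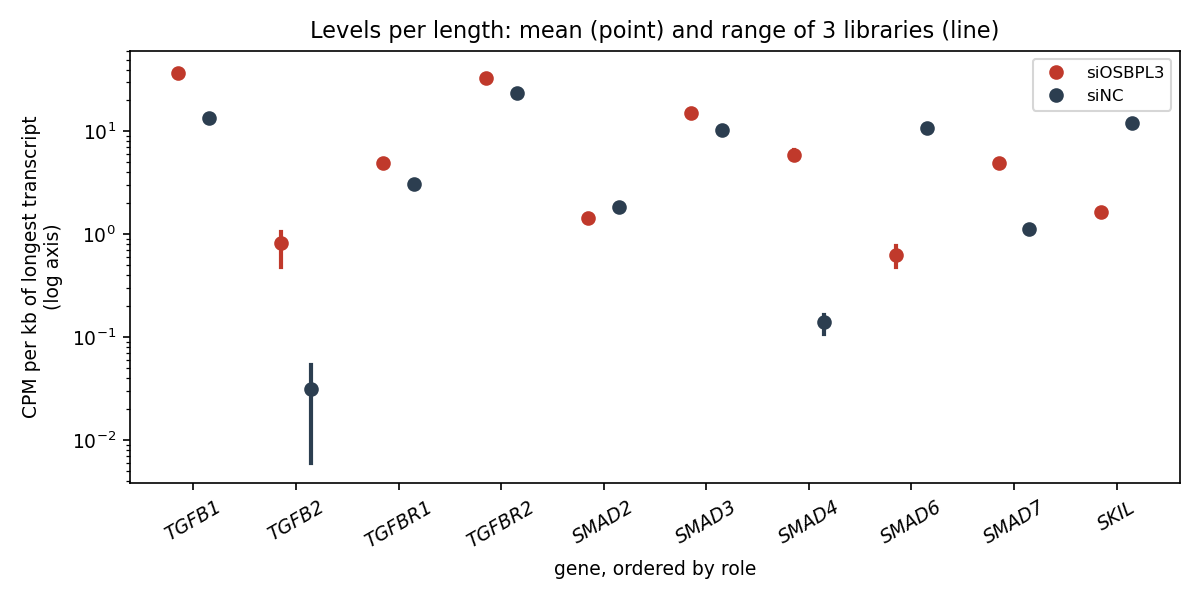
CPM per kb of the longest annotated transcript (log axis), as the mean (point) and range (line) of 3 libraries, siOSBPL3 left of siNC for each gene. TGFBR2 and TGFB1 are high in both groups, while SMAD4 stands at 5.87 in siOSBPL3 and 0.141 in siNC and SMAD6 at 0.633 in siOSBPL3 and 10.9 in siNC.

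Of the 10 genes, 3 lie on chromosome 18 and 2 on chromosome 15. SMAD6 (chromosome 15, 66702236 to 66782849, GRCh38.p14) ends 283 kb before SMAD3 (67065602 to 67195169), and of this pair SMAD6 was far lower in siOSBPL3 and SMAD3 differed little. On chromosome 18 lie SMAD2 (47808957 to 47930872), SMAD7 (48919853 to 48950965) and SMAD4 (51030213 to 51085042). Among the 24 tested genes that start within 2 Mb of these 3, 19 were higher and 2 lower in siOSBPL3 (edgeR quasi-likelihood test, adjusted p under 0.05), with a median log2 fold change of 0.77. Within 2 Mb of SMAD4 alone the tally was 12 higher and 1 lower of 13, against 40.4% and 39.8% of all genes tested. ELAC1, a tRNA 3′ end-processing enzyme gene that ends 42.1 kb before SMAD4, stood at 8.79 ± 0.560 CPM in siOSBPL3 and 0.962 ± 0.360 CPM in siNC (n = 3 each), a log2 fold change of 3.20 ± 0.27. MEX3C, an RNA-binding ubiquitin ligase gene that starts 89.5 kb after SMAD4, stood at 39.4 ± 2.66 CPM in siOSBPL3 and 46.4 ± 2.40 CPM in siNC (log2 fold change -0.23 ± 0.09, adjusted p = 0.030, edgeR), and turned to 0.16 with the GC and length correction. Both neighbours were named after their values were seen. SMAD4 had the largest log2 fold change among the genes of these windows.

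**Figure D4:**
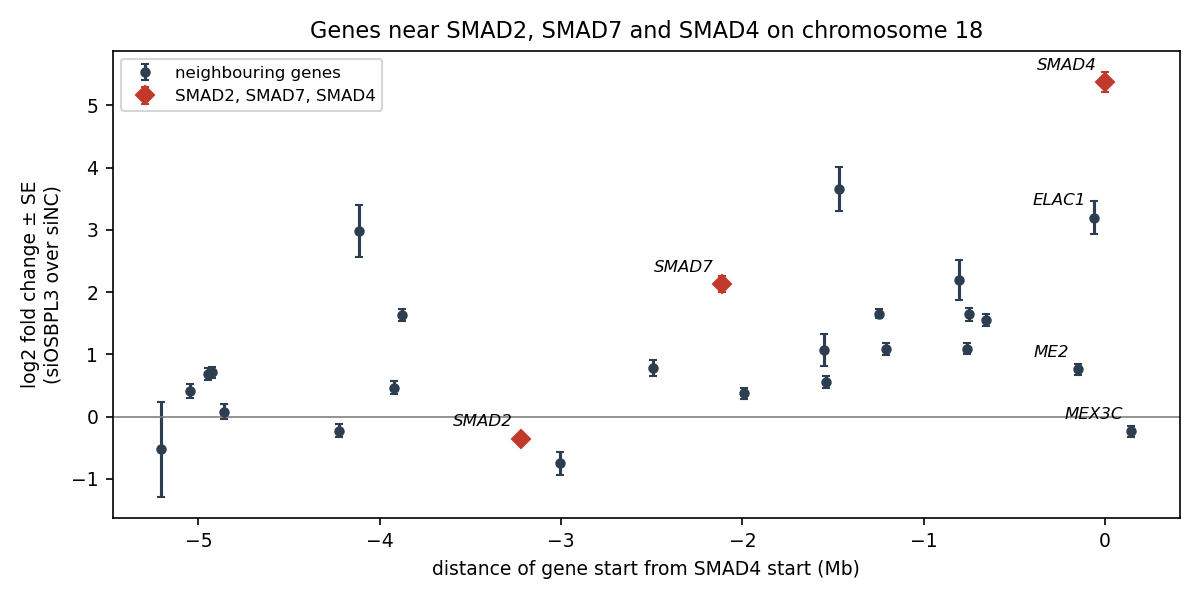
Log2 fold change (siOSBPL3 over siNC, ± SE) of tested genes within 2 Mb of SMAD2, SMAD7 or SMAD4, by the distance of the gene start from the SMAD4 start in Mb. Most points lie above 0, SMAD4 is the highest at 5.37, ELAC1 beside it is at 3.20, and MEX3C on its other side is at -0.23 (0.16 with the GC and length correction).

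By the likeness of their profile over the 6 libraries (Pearson correlation of log2(CPM + 0.5)), ANKRD54, RNPEP and GFER were closest to SMAD4, the gene with the largest rise, all with r of at least 0.9998. TNS3, FMNL2 and VCL were closest to SMAD6, the gene with the largest fall, with r of 0.9999. The libraries form 2 groups that differ widely, so 1266 of 11197 genes reached r over 0.99 with SMAD4 and 1310 with SMAD6, and the measure ignores size: ANKRD54 was at 1.19 on the log2 scale and SMAD4 at 5.37.

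The rest of the pathway was read from 7 lists of 113 genes, of which 100 could be tested. Of these, 33 were higher and 57 lower in siOSBPL3 and 10 did not pass the test, with a median log2 fold change of -0.54. The share called is again to be read against the 80.2% of all genes tested. Adjusted p-values below are from edgeR's quasi-likelihood test over all genes tested.

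**Figure D5:**
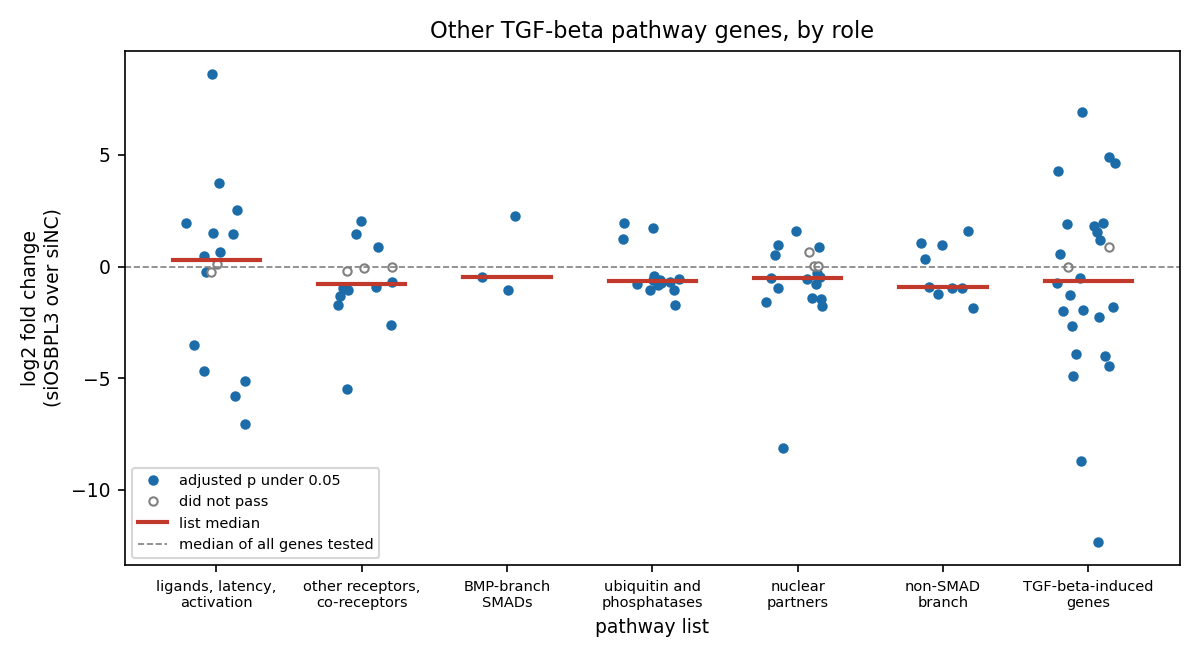
Log2 fold change (siOSBPL3 over siNC) of the tested genes of the 7 pathway lists, filled where the adjusted p was under 0.05, with the list median as a red bar and the median of all genes tested as a dashed line. Ligand and target lists spread from far below to far above 0, while most ubiquitin and phosphatase genes lie just below it.

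Among 16 tested genes for other ligands and for latency and activation factors, 8 were higher and 6 lower, and TGFB3 and LTBP3 did not pass (list median 0.30). LTBP1, which tethers latent TGF-beta to the matrix, had 13.7 ± 2.82 CPM in siOSBPL3 and 3 counts over all siNC libraries, a ratio of 439 with a 95% exact counting interval from 150 to 2130. ITGB6, an integrin subunit that releases active TGF-beta, had 0.509 ± 0.0862 CPM in siOSBPL3 and 28.4 ± 0.800 CPM in siNC (n = 3 each, log2 fold change -5.79 ± 0.16, adjusted p = 3e-11). INHBE, an activin subunit gene, had 1.02 ± 0.896 CPM in siOSBPL3 and 35.3 ± 1.58 CPM in siNC (log2 fold change -5.13 ± 0.40, adjusted p = 1.9e-06), and its log2 fold change was -6.13 without siOSBPL3 replicate 1. A further pair of activators, named after their values were seen, went opposite ways: ITGB8, the partner of ITGAV, at -4.70 ± 0.19 (-3.72 with the GC and length correction), and THBS1, a matrix protein that can free the ligand, at 3.73 ± 0.15.

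Of 14 tested genes for other receptors and proteins acting at the receptors, 3 were higher and 8 lower, and BAMBI, ZFYVE9 and HGS did not pass (median -0.81). TGFBR3, the co-receptor betaglycan that presents TGFB2, was at 10.3 ± 3.13 CPM in siOSBPL3 and 34.1 ± 0.764 CPM in siNC (log2 fold change -1.73 ± 0.17, adjusted p = 1.4e-06). ACVR1C, a type I receptor of the activin branch, was at 0.194, 0.109 and 0.278 CPM in siOSBPL3 and 8.37, 8.58 and 10.0 CPM in siNC (-5.50 ± 0.30 on the log2 scale, adjusted p = 6.7e-09, and -4.41 with the GC and length correction). PMEPA1, a TGF-beta-induced inhibitor that binds SMAD2 and SMAD3, was at 3.85, 3.58 and 4.55 CPM in siOSBPL3 and 24.0, 25.0 and 25.0 CPM in siNC (-2.62 ± 0.13, adjusted p = 3.3e-09). PMEPA1 and SKIL, both inhibitors that the pathway induces, were lower in siOSBPL3, and SMAD7, another such inhibitor, was higher.

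The BMP-branch SMADs were 1 higher and 2 lower. SMAD1 stood at 13.4 ± 0.528 CPM in siOSBPL3 and 27.8 ± 1.42 CPM in siNC (-1.05 ± 0.10, adjusted p = 1.2e-06), and SMAD9, named to complete the list, at 1.52 ± 0.0697 CPM in siOSBPL3 and 0.315 ± 0.0651 CPM in siNC (2.26 ± 0.40). SMAD5 was at -0.46 ± 0.10 (adjusted p = 0.00079), but at 0.47 with the GC and length correction. That correction left SMAD1 at -0.56 by the longest transcript and at -1.03 by the middle RefSeq-paired one. With either form the split of these SMADs was 2 higher and 1 lower, so the mostly lower direction rests on the uncorrected fit.

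All 14 genes for ubiquitin ligases, deubiquitinases and phosphatases passed the test, 3 higher and 11 lower (median -0.67). STUB1, a ligase that can mark SMADs for degradation, stood at 150.0 ± 15.7 CPM in siOSBPL3 and 38.8 ± 2.19 CPM in siNC (1.95 ± 0.10, adjusted p = 3e-09). PPP1R15A, a phosphatase subunit that SMAD7 can bring to TGFBR1, was at 1.74 ± 0.12, and USP9X, a deubiquitinase of SMAD4, at -1.74 ± 0.09. The GC and length correction left STUB1 at 0.81, PPP1R15A at 0.98 and USP9X at -0.74. With the GC and length correction the split was 5 higher and 5 lower by the longest transcript (median 0.07), and 4 higher and 8 lower by the middle RefSeq-paired one, so the mostly lower direction of this list rests on the uncorrected fit.

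Of 18 tested nuclear partners 4 were higher and 11 lower (median -0.50), and the corepressor SKI, the paralogue of SKIL, did not pass at 35.5 ± 1.81 CPM in siOSBPL3 and 35.1 ± 0.282 CPM in siNC (0.02 ± 0.09, and -0.50 with the GC and length correction). TGIF2 and FOXH1 did not pass either. RUNX3, a partner of SMADs often silenced in gastrointestinal cancers, had 7 counts over all siOSBPL3 libraries and 1745 over all siNC libraries (-8.11 ± 0.44, adjusted p = 6.2e-09). All 7 counts were in siOSBPL3 replicate 1, so the size of this difference rests on that library, and without it the siOSBPL3 libraries held none. RUNX1 (-1.78 ± 0.08) and SP1 (-1.60 ± 0.08) were lower as well. Of the 9 non-SMAD branch genes 4 were higher and 5 lower (median -0.92), with the adaptor ligase gene TRAF6 at -1.85 ± 0.10, the apoptosis inhibitor gene XIAP, which also binds TAB1, at -1.24 ± 0.09, and the polarity gene PARD6A at 1.57 ± 0.17. With the GC and length correction PARD6A and XIAP were at 0.48 and -0.33. The median of the non-SMAD branch genes was then -0.256 by the longest transcript and -0.165 by the middle RefSeq-paired one.

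Genes known to be induced by TGF-beta in epithelial cells did not move as one. Of 26 tested, 10 were higher, 14 lower and 2 (COL4A1 and KLF10) did not pass, with a median of -0.64. With the GC and length correction 7 were higher and 14 lower of 25 tested. VIM, the mesenchymal filament vimentin, had 1.64 ± 0.868 CPM in siOSBPL3 and 694 ± 8.96 CPM in siNC (-8.73 ± 0.26, adjusted p = 1.5e-10). SNAI2, a repressor of epithelial genes, had no count in siOSBPL3 and 18.5 ± 0.611 CPM in siNC, which is at least 692-fold lower when the siOSBPL3 group is given 3 counts in all. ANGPTL4, a secreted lipase inhibitor, had 29.9 ± 1.24 CPM in siOSBPL3 and 0.239 ± 0.0834 CPM in siNC (6.94 ± 0.20, adjusted p = 2.9e-11, 5.90 after GC and length correction).

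The cell-cycle inhibitors in that list, named after their values were seen, went opposite ways. CDKN1A, which encodes p21, had 194.0, 180.0 and 177.0 CPM in siOSBPL3, against 7.64, 7.50 and 7.18 CPM in siNC (4.62 ± 0.09, and 3.90 with the GC and length correction). CDKN2B, which encodes p15, had 4.29, 3.99 and 3.99 CPM in siOSBPL3, against 86.2, 90.1 and 90.6 CPM in siNC (-4.44 ± 0.10).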

How the data were processed

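RNA of 3 siOSBPL3 and 3 siNC samples of SW620 cells was sequenced. The authors deposited raw whole-number counts per gene symbol. HISAT2 2.2.1, HTSeq 0.13.5 and GRCh38 are named, per the submitters' processing notes. The annotation, strand setting and counting options are not given in the sources used here. Groups and replicate numbers came from sample titles, and replicates differed by more than counting noise (chi-square over its degrees of freedom, 18.4 to 48.9 in siOSBPL3 and 2.94 to 3.52 in siNC).

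The test was edgeR's quasi-likelihood test (version 4.0.16, R 4.3.3), robust and two-sided, with group as its only term, after filterByExpr (minimum count 10, total 15) and TMM scaling, and p-values were adjusted by Benjamini-Hochberg across every tested gene. A log2 fold change has siOSBPL3 on top, and its SE is its size over the square root of F. The fit was tested on simulated data in which far fewer genes differed than here, which cannot show how it does where most genes differ. The 10 genes, the lists and the tests were chosen with earlier results of these data known. Named were the 10 genes, OSBPL3, up to 3 called genes per list with the largest absolute change that averaged 5 CPM or more in either group, and, for SMAD4 and SMAD6, the 3 genes with the most similar profile. Others were named after their values were seen. Of the lists, 3 genes were not in the table. List medians did not move with genes of 3 or fewer counts in a group set at their bound. Intervals and floors cover counting error only.

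Alternatives were DESeq2 1.42.0, limma-voom (limma 3.58.1), RLE factors, library totals, 2 other filters, an adjusted p of 0.01, a block for replicate number, leaving out each library, and a per-library smooth correction (mgcv 1.9.3) for transcript GC content and length from GENCODE 29, for 89.1% of genes tested. The correction by the middle RefSeq-paired transcript, and the fit on the genes with a length, were chosen after seeing the data. RefSeq gave positions and start regions on GRCh38.p14, which held all 10 genes. A gene of the lists is not reported by name here.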

Additional observations from a re-analysis of the deposited data

How the results depend on the processing

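TGFB2 was not tested with the filter of a mean of at least 5 CPM. Under every alternative run except the GC and length correction, each of the 10 genes kept its direction wherever it was tested. That correction turned SMAD2, at -0.36 without it, to 1.38 by the longest transcript and 0.80 by the middle RefSeq-paired one, and SMAD5, at -0.46 without it, to 0.47 and 0.54, and the cause was not tested. By the longest transcript it also turned MEX3C (-0.23 without it, 0.16 with it) and further called list genes, among them USP15 (-0.80, 0.56), PPM1A (-0.60, 0.45), ITGAV (-0.26, 0.58) and LTBP4 (0.65, -0.29). Of the values of the 10 genes under alternatives, 136 moved by less than 1 SD between replicates, 21 by more with no change of sign, most of these under the correction, and 2 turned. The numbers of genes called stayed within 1.5 times for all genes, each list and the chromosome 18 neighbours, from 9399 with a mean of at least 5 CPM to 13157 with no filter on low counts, against 12437. Leaving out single libraries gave 11814 to 13034 genes called. Same-numbered libraries did not deviate together (correlations of -0.0061, -0.0088 and -0.0043). With 3 libraries in each group this cannot show whether samples of the same number were prepared together. With the replicate number as a block 12277 genes were called. With the median transcript length 1 of 10 genes in siOSBPL3 and 3 of 10 in siNC kept their rank, and with the middle RefSeq-paired transcript 2 and 3. Depth limits TGFB2 in siNC, at 15 counts in all. Leaving out siOSBPL3 replicate 1, the library farthest from its group, moved OSBPL3 to -3.68 against -2.97 and INHBE to -6.13 against -5.13, and left RUNX3 with no siOSBPL3 count.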
